A study of Mus musculus with 6 samples.

Results

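The transcripts described here encode homeobox, SOX, forkhead, T-box, GATA, Krüppel-like, ETS and nuclear receptor proteins, the DNA-binding factors that set and maintain cell identity during development. Members were taken by gene symbol alone, as all rows whose names begin with Hox, Fox or Rhox, or with Sox, Tbx, Gata, Klf, Irx, Lhx, Meis, Pbx, Six-homeobox letters, Nkx, Etv or Tcf and a digit, or that consist of Nr, a digit, a letter and a digit. Sox9 and Rhox5 were left out of the set. The rule found 31 of the 3257 genes analysed. One of them, Foxred2, carries the letters of the forkhead family but encodes a flavoprotein oxidoreductase of the endoplasmic reticulum, and Tcf23 encodes a basic helix-loop-helix protein.

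RNA came from primary mouse Sertoli cells on a C57BL/6 background, enriched by plating and infected for 24 hours on 2 occasions. The 3 knockout libraries were made from cells of UXT KO animals that received a viral construct with Cre recombinase. The 3 wild-type libraries were made from cells that received an empty plasmid. The control cells therefore had no Cre, and loss of UXT cannot be told apart from exposure to the Cre construct. The age of the mice, the promoter that drives Cre and the number of animals behind each library are not given in the sources used here, so p-values measure only the spread between these libraries. UXT, a prefoldin-like protein that binds the androgen receptor, had no row among the genes analysed. The table listed only genes past 1.5-fold at an adjusted p under 0.05, so no fall of that size was listed there for UXT. Its level could not be read, and the knockout could not be checked on its own transcript.

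Developmental factors of this kind work in families of paralogs that share a DNA-binding domain. SOX and forkhead proteins bend or open DNA, T-box and homeodomain proteins mark position and lineage, and nuclear receptors couple transcription to small lipophilic ligands. In the testis, SOX and GATA factors maintain Sertoli cells, while SOX proteins of group F, Sox7, Sox17 and Sox18, are known for their part in blood and lymphatic vessels.

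Every gene in the deposited table had passed the authors' own thresholds on these same libraries, 1.5-fold and an adjusted p under 0.05, so the calls below describe the members and are not independent evidence. RefSeq annotated 257 protein-coding genes that fit the name rule, and no statement is made about those without a row, which were not analysed here. The table held 7 of 46 Fox genes, 6 of 18 Sox genes, 5 of 25 Nr genes, 3 of 13 Tbx genes and 2 of 39 Hox genes. It held 2 of 17 Klf genes and 1 each of the Etv, Gata, Lhx, Rhox and Tcf genes, with Six4 for its family, and no Irx, Meis, Pbx or Nkx gene was among the rows analysed. The median deposited log2 value over the table lay between 8.82 and 8.91 in the knockout libraries and between 9.15 and 9.18 in the wild-type libraries. The cell label was checked on Sertoli markers. Clu had values of 15.36 to 15.84 in knockout libraries and 16.56 to 17.06 in wild-type libraries, and Wt1 of 10.87 to 11.05 in knockout and 12.27 to 12.48 in wild-type libraries. Low values were found for Amh, at 4.24 to 4.31 in knockout and 4.53 to 4.72 in wild-type libraries, and for Cst9, at 2.85 to 2.88 in knockout and 2.95 to 2.99 in wild-type libraries. Markers of neighbouring cells were also present: interstitial fibroblast markers summed to a log2 of 19.42 to 20.14 in knockout and 20.47 to 20.62 in wild-type libraries, and the myoid marker Acta2 had values of 17.68 to 17.85 in knockout and 18.21 to 18.53 in wild-type libraries. These values are not per length, so they do not rank the cell types. No counts were used, so the sequencing depth was unknown.

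In knockout cells, 13 of the 31 members were higher and 18 were lower by limma with Benjamini-Hochberg adjustment over all 3257 genes at an adjusted p under 0.05. All 31 members were thus called in 1 direction or the other, where 99.6% of genes were, and 32.1% of genes were higher and 67.5% lower by the same call. The members' shares were 41.9% higher and 58.1% lower. After quantile normalization between libraries the members' split was 13 higher and 5 lower, and after centring each library on its median it was 13 higher and 4 lower. A call counts only in the direction of the authors' fold, and by that rule 32.1% of all genes were higher and 35.1% lower after quantile normalization, and 32.1% higher and 31.4% lower after median centring. The median difference of all genes, -0.40 on the log2 scale from the deposited values, was -0.07 after quantile normalization and -0.10 after median centring. Both scalings were computed on the table's genes alone, 2210 of which were lower and 1047 higher by the authors' fold. They balance genes that were selected as changed, so a call kept or lost after them does not show which change is sound. The knockout values lay wholly above or wholly below the wild-type values in 30 of 31 members, beside 97.5% of the table.

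By the authors' fold, the falls were larger than the rises at the median and at the largest. Among the 13 higher members the median fold was 1.91 and the largest 2.45, and among the 18 lower members the median fold was 2.41 and the largest 17.6, by the authors' deposited table. Over all genes the median folds by the authors' deposited table were 1.75 for higher and 2.33 for lower genes. A fold of at least 4 was reached by 5 members, Sox7, Sox18, Nr0b2, Gata1 and Sox17, all lower, where 13.5% of the table's genes were that far lower and 0.768% that far higher by the authors' deposited table. A fold of at least 2 was reached by 6 higher and 12 lower members, where 9.33% of genes were higher and 44.4% lower to that extent by the authors' deposited table. The median log2 fold change by the authors' deposited table was -0.82 over the members and -0.88 over all genes. By the limma difference, the members' rises ran from 0.21 to 0.81 and their falls from -0.11 to -1.61, so the sizes overlapped. Lower members had a median authors' average log2 value of 6.05, and higher members of 10.27. Folds ran larger at a low average: the 814 lowest genes had medians of 2.36 for higher and 2.79 for lower genes. For the 815 highest genes they were 1.68 and 1.88. Rises and falls of members were not compared at equal average.

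**Figure D1:**
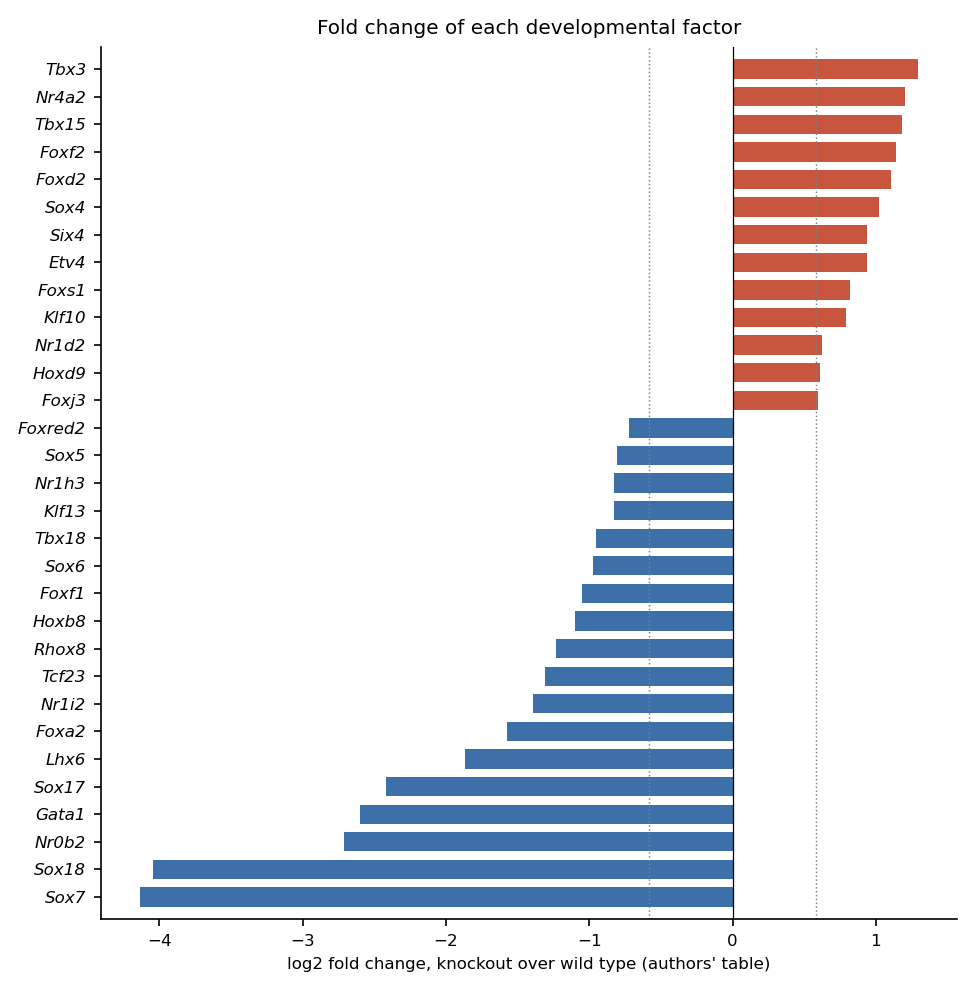
Log2 fold change of each of the 31 members, knockout over wild type, from the authors' deposited table; bars start at 0 and dotted lines mark the selection threshold of 1.5-fold. Tbx3 is at the top with 2.45-fold higher, and Sox7 and Sox18 at the bottom are 17.6-fold and 16.5-fold lower.

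Fold sizes are the authors', because the deposited values per library differed by less than the authors' fold changes. The difference between group means was 0.39 of the authors' log2 fold change at the median over members and 0.58 over all genes. Over all genes, divided into 4 equal bins by the authors' average log2 value, the median ratio was 0.24, 0.51, 0.61 and 0.65, lowest to highest bin. For Nr1i2 the ratio was 0.08 and for Gata1 0.16, while for Sox4 it was 0.66. That average is not corrected for transcript length and serves here only to describe precision. The lowest bin held 16 members, 3 higher and 13 lower, beside 14.6% higher and 84.3% lower of its 814 genes. The next bin held 4 members, 2 in each direction, beside 31.2% higher and 68.4% lower of its genes. The third bin held 7 members, 5 of them higher, beside 44.1% of its genes, and the highest bin held 4 members, 3 of them higher, beside 38.3% of its genes.

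**Figure D2:**
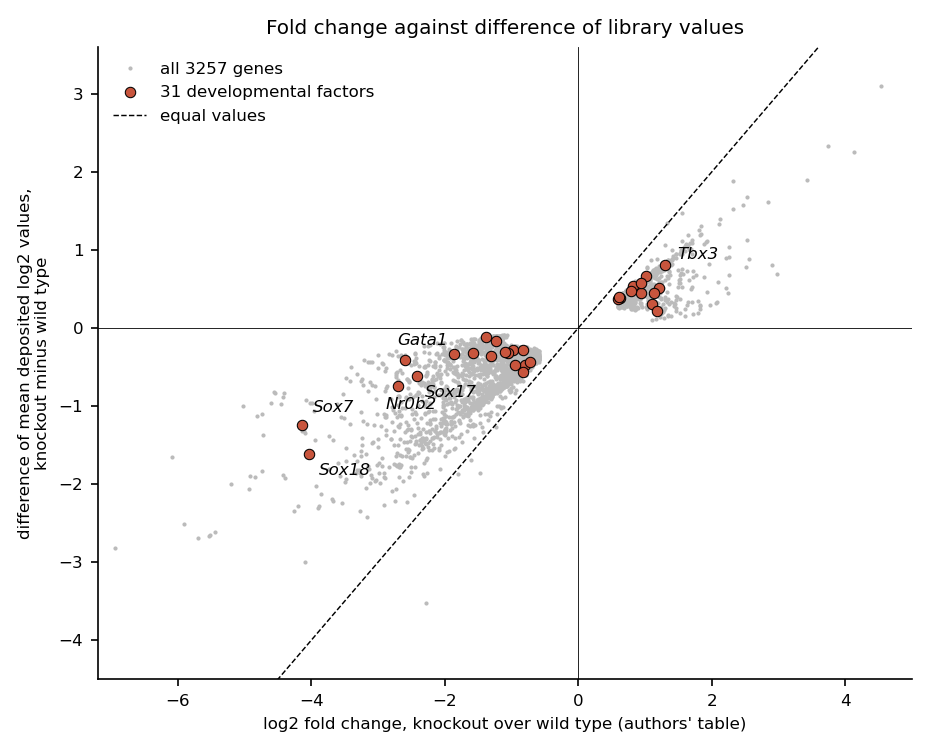
Difference of mean deposited log2 values, knockout minus wild type, against the authors' log2 fold change, for all 3257 genes (grey) and the 31 members (red); the dashed line marks equal values. Members lie closer to 0 than the line, with Sox7 at -1.24 on the vertical axis and -4.14 on the horizontal axis.

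The SOX genes held the 2 largest changes among the members, with 5 of 6 members lower and Sox4 higher, although Sox5 and Sox6 did not pass after either scaling and the difference of Sox6 turned positive. Sox7 (gene ID 20680, chromosome 14, 63943706 to 63950732 in GRCm38) had deposited log2 values of 5.77, 5.75 and 5.73 in the knockout libraries, against 7.01, 6.91 and 7.06 in the wild-type libraries. Sox18 (gene ID 20672, chromosome 2, 181669837 to 181671640 in GRCm38) had values of 6.01, 6.28 and 6.11 in the knockout libraries, against 7.65, 7.84 and 7.74 in the wild-type libraries. In both genes the groups were apart by far more than the spread within either group. Sox7 fell 17.6-fold by the authors' deposited table, with a limma difference -1.24 ± 0.08 (SE), adjusted p = 5.06e-06. Sox18 fell 16.5-fold by the authors' deposited table, with a limma difference -1.61 ± 0.10 (SE), adjusted p = 4.89e-06. Sox17 (gene ID 20671, chromosome 1, 4490928 to 4497426 in GRCm38), which specifies endoderm and arterial endothelium, had values of 5.41, 5.25 and 5.28 in the knockout libraries, against 5.92, 5.83 and 6.03 in the wild-type libraries. Its groups did not overlap, and it fell 5.34-fold by the authors' deposited table (limma difference -0.62 ± 0.08 (SE), adjusted p = 1.71e-04). All 3 group F genes kept an adjusted p under 0.05 after both scalings, with the weakest for Sox17 after quantile normalization (difference -0.25, adjusted p = 0.0347).

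Markers of other cells were read beside the group F genes. All marker lists here were chosen with earlier results of these data known, and only genes already selected as changed had a row. Over the table, 67.5% of genes were lower, and 35.1% were after quantile normalization and 31.4% after median centring. Of 31 endothelial markers, 24 had a row and all 24 were lower, by a median of 9.52-fold by the authors' deposited table, with 21 lower after quantile normalization and 19 after median centring. Summed over the endothelial list, the linear values came to a log2 of 13.44 to 13.63 in knockout libraries and 14.24 to 14.38 in wild-type libraries. Pecam1, a defining endothelial adhesion molecule, had values of 8.25, 8.17 and 7.94 in knockout libraries against 9.95, 10.07 and 10.03 in wild-type libraries. Erg, an ETS factor of endothelium, fell 17.7-fold, and the vascular genes Dll4, Gpihbp1 and Vwf fell 124-fold, 68.2-fold and 51.8-fold by the authors' deposited table. Flt4, Cdh5 and Eng, which had the highest wild-type values of the list, fell least, by 1.53-fold, 1.73-fold and 1.85-fold by the authors' deposited table. In these bulk libraries fewer cells of a type and less RNA per cell cannot be told apart, and the part of endothelial cells in the fall of Sox7, Sox17 and Sox18 was not tested.

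**Figure D3:**
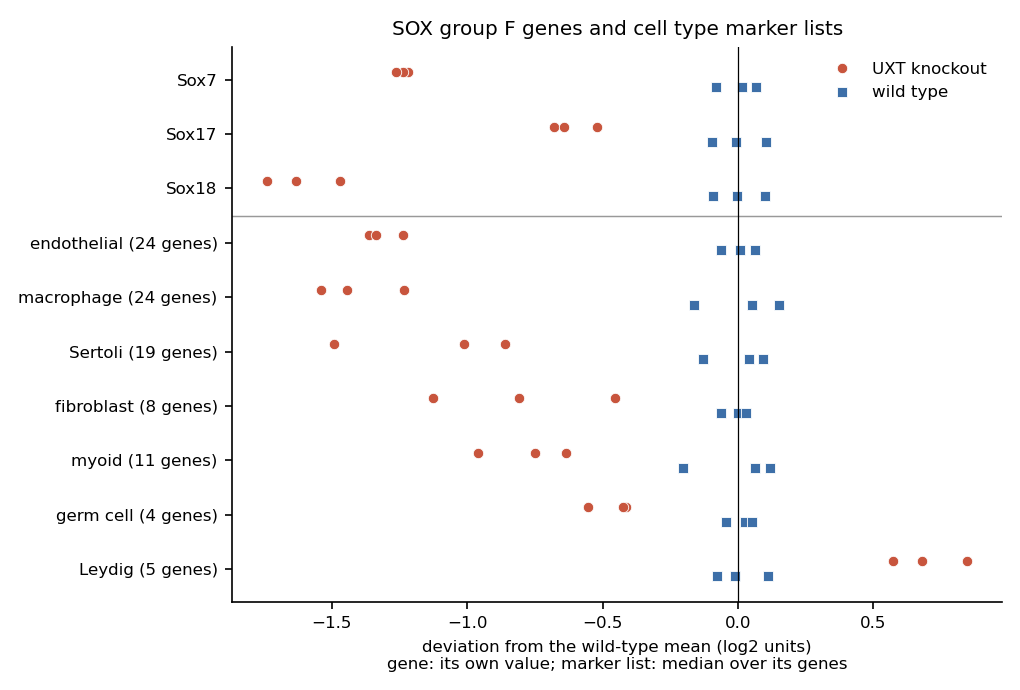
Deviation from the wild-type mean in each library for Sox7, Sox17 and Sox18 (own values) and for 7 marker lists (median over the list's genes in the table), knockout circles and wild-type squares, in log2 units. Knockout values are lower for the 3 genes and for 6 of the lists, and higher for the Leydig list (0.57 to 0.85); sizes cannot be compared between rows because the shortfall against the authors' folds varies with the average value.

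Sox4, a group C factor that supports progenitor survival, was the SOX gene that rose. Sox4 (gene ID 20677, chromosome 13, 28948919 to 28953699 in GRCm38) had values of 13.48, 13.46 and 13.59 in the knockout libraries, against 12.76, 12.86 and 12.90 in the wild-type libraries. The groups were separate and evenly tight, with an SD of 0.07 in each (n = 3 each). It rose 2.03-fold by the authors' deposited table (limma difference 0.67 ± 0.08 (SE), adjusted p = 8.94e-05). The group D genes Sox5 and Sox6, which lack an activation domain and assist SOX9 in cartilage, were lower. Sox5 had values of 8.81, 9.13 and 9.06 in the knockout libraries, against 9.33, 9.51 and 9.60 in the wild-type libraries. Sox6 had values of 5.66, 5.70 and 5.83 in the knockout libraries, against 6.14, 6.06 and 5.84 in the wild-type libraries, where the highest knockout and the lowest wild-type value nearly met. Sox5 fell 1.75-fold and Sox6 1.97-fold by the authors' deposited table, with limma adjusted p = 0.00334 for Sox5 and 0.0173 for Sox6. After quantile normalization the difference was -0.17 for Sox5 and 0.09 for Sox6, and Sox6 lost its call in 3 of the 6 refits that left out 1 library (largest adjusted p = 0.0646).

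Gata1 (gene ID 14460, chromosome X, 7959260 to 7976663 in GRCm38), a zinc finger factor of the erythroid lineage that mouse Sertoli cells also express, was the GATA gene among the members. It had values of 4.43, 4.48 and 4.46 in the knockout libraries, against 4.73, 4.98 and 4.88 in the wild-type libraries. All knockout values were below all wild-type values, and the knockout values differed little among themselves. These were low values, in the lowest bin by average, where the difference of Gata1 was 0.16 of the authors' log2 fold change. Gata1 fell 6.04-fold by the authors' deposited table (limma difference -0.41 ± 0.07 (SE), adjusted p = 6.79e-04), and after median centring its difference was -0.11 (adjusted p = 0.205).

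Of the nuclear receptors, 3 were lower and 2 higher; Nr1h3 and Nr1i2 did not pass as lower after either scaling, and Nr1i2 passed with the other sign after median centring. Nr0b2 (gene ID 23957, chromosome 4, 133553376 to 133556686 in GRCm38), an orphan receptor without a DNA-binding domain that represses other receptors, changed most. It had values of 5.43, 5.49 and 5.56 in the knockout libraries, against 6.12, 6.19 and 6.39 in the wild-type libraries. The gap between the groups exceeded the range within each. Nr0b2 fell 6.54-fold by the authors' deposited table (limma difference -0.74 ± 0.09 (SE), adjusted p = 1.11e-04), and it stayed lower after quantile normalization (difference -0.37, adjusted p = 0.00397). Nr1h3, the oxysterol receptor LXR alpha, had values of 6.41, 6.31 and 6.38 in the knockout libraries, against 6.53, 6.56 and 6.85 in the wild-type libraries. One wild-type library, replicate 3, stood above the other wild-type libraries in Nr1h3. Its fall of 1.77-fold by the authors' deposited table (limma adjusted p = 0.024) did not pass without that library (adjusted p = 0.0759) or without knockout replicate 2 (adjusted p = 0.0745), and its difference turned to 0.16 after quantile normalization and 0.01 after median centring. Nr1i2, the xenobiotic receptor PXR, had values of 2.71, 2.71 and 2.71 in the knockout libraries, against 2.80, 2.80 and 2.87 in the wild-type libraries. These values lay near the low end of the table, and a fall of 2.62-fold by the authors' deposited table stood beside a difference of -0.11 between the means of the deposited values (limma adjusted p = 0.00615). After median centring the difference of Nr1i2 was 0.18, of the other sign, with a limma adjusted p of 0.00347.

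Macrophage markers were read beside Nr1h3, which macrophages express. Of 25, 24 had a row and all 24 were lower, by a median of 5.84-fold by the authors' deposited table, where 67.5% of all genes were lower. After quantile normalization 23 were lower and after median centring 22, beside 35.1% and 31.4% of all genes. Nr1h3 did not pass after either scaling, but both moved all genes upwards, so that small falls lose their call. Summed over the macrophage list, the values came to a log2 of 13.80 to 14.05 in knockout libraries and 15.26 to 15.62 in wild-type libraries. The part of macrophages in the change of Nr1h3 was not tested.

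The receptors that rose were Nr4a2 and Nr1d2. Nr4a2, an orphan receptor induced early after stimulation, had values of 7.46, 7.31 and 7.46 in the knockout libraries, against 6.90, 6.77 and 7.03 in the wild-type libraries. Nr1d2, a haem-binding repressor of the circadian clock, had values of 10.53, 10.53 and 10.83 in the knockout libraries, against 10.28, 10.24 and 10.22 in the wild-type libraries. In Nr1d2 knockout replicate 3 stood above the other knockout libraries, and in neither gene did the groups overlap. Nr4a2 rose 2.30-fold and Nr1d2 1.54-fold by the authors' deposited table (limma adjusted p = 0.00128 for Nr4a2 and 0.0044 for Nr1d2). Nr4a2 was examined beside 29 immediate early genes, of which 12 had a row, with 7 higher and 5 lower under the deposited values and both scalings. Over all genes 32.1% were higher in each setting. Those lower were 67.5% under the deposited values, 35.1% after quantile normalization and 31.4% after median centring. Egr4 rose 3.55-fold and Fosb 3.04-fold, while Fos fell 4.08-fold, Ier3 3.16-fold, Ctgf 2.14-fold, Csrnp1 2.12-fold and Cyr61 1.995-fold by the authors' deposited table. Of 23 circadian clock genes 4 had a row, and Bhlhe41 rose 1.82-fold while Npas2, Dbp and Per3 fell 3.49-fold, 3.14-fold and 1.67-fold by the authors' deposited table; of the 3 lower genes, 1 passed after quantile normalization and 2 after median centring.

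Leydig cell markers and receptor partners were given beside the receptors. All 5 Leydig markers with a row, of 15, were higher, under the deposited values and both scalings, beside 32.1% of all genes in each. They included Hsd3b1, a steroid dehydrogenase gene, at 5.003-fold, and Hao2 at 3.79-fold by the authors' deposited table. Among nuclear receptors with other symbols, 2 of 24 had a row, and Thrb, a thyroid hormone receptor, rose 2.50-fold while Rarb, a retinoic acid receptor, fell 1.66-fold by the authors' deposited table, though Rarb did not pass after either scaling. Among 41 nuclear receptor coregulators 4 had a row. The coactivator gene Crebbp rose 1.81-fold, Zmiz1 1.62-fold and Trim28 1.57-fold, while Hr fell 1.75-fold by the authors' deposited table; Hr did not pass after either scaling.

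Promoter sequence shows the letters behind the counts that follow. RefSeq promoter windows in GRCm38.p6, from 250 bases before to 50 bases after a start site, were matched for 21 of the 31 members. For Foxa2, Lhx6, Nr1h3, Six4 and Sox6, 5 members with more than 1 start site listed, the first listed was used, as for all genes. The windows printed are those of Nr0b2 and Gata1, the largest falls with an entry, and of Sox4, the SOX gene that rose, in lower case with capitals at CAGGAA (an ETS core), ACAATG (a SOX site) and TATAAA (the core promoter box), each on either strand. The Gata1 window belongs to a start site 8.75 kb inside the gene's outer 5′ end, while those of Nr0b2 and Sox4 lie at the gene's end.
Nr0b2 (chr4:133553126-133553425, plus strand): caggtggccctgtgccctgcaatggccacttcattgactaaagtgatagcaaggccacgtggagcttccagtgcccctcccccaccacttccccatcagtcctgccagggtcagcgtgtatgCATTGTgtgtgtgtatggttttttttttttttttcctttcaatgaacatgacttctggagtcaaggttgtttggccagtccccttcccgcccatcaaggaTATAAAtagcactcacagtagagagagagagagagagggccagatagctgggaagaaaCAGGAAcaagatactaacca
Gata1 (chrX:7967861-7968160, minus strand): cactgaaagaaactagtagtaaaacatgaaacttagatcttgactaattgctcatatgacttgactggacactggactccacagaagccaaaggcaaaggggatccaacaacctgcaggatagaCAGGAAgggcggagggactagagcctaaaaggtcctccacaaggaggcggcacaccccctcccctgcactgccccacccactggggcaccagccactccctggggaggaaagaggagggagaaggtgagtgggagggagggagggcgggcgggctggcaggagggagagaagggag
Sox4 (chr13:28953650-28953949, minus strand): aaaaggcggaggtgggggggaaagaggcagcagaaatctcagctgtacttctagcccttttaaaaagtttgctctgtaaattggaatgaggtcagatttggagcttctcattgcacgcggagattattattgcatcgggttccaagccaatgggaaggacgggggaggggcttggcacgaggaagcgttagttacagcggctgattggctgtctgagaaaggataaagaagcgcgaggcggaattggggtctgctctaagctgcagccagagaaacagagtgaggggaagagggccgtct
The Nr0b2 window held CAGGAA at position 31, the reverse complement of ACAATG at -128 and TATAAA at -28 from the start site, no 2 of which overlap. The Gata1 window held CAGGAA at -126, and the Sox4 window held none of the 3 motifs.

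CAGGAA occurred in 5 of 21 member promoters and in 30.4% of all 27025 promoters searched. The 5, Gata1, Nr0b2, Sox5, Sox6 and Tcf23, were among 13 lower members with a window (those of Gata1, Sox5 and Sox6 at start sites 8.75, 835 and 2.03 kb inside the gene), and 0 of 8 higher members had a match. Over the table, the letters stood in 33.3% of lower and 25.5% of higher genes' promoters. ACAATG stood in 4 member promoters and 12.8% of all promoters, TATAAA in 4 and 14.2%, CCACCC in 9 and 30.9%, and AGAACA, part of the steroid receptor site, in 3 and 19.0%. TGTTTA stood in 1 member promoter and 13.4% of all promoters, AGATAA in 0 and 11.4%, and CANNTG in 13 and 72.1%. A match is a string of letters, and no binding was measured.

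Among the 7 members named Fox, 4 were higher and 3 lower, and the lower genes Foxa2, Foxf1 and Foxred2 did not pass after either scaling. Foxf1 and Foxf2, paralogs that act in mesenchyme downstream of hedgehog signals, went opposite ways. Foxf2 had values of 7.20, 6.90 and 6.93 in the knockout libraries, against 6.42, 6.67 and 6.62 in the wild-type libraries. Foxf1 had values of 6.03, 6.07 and 5.90 in the knockout libraries, against 6.21, 6.30 and 6.47 in the wild-type libraries. The groups did not overlap in either gene, and the difference between the effects on these paralogs was not tested. Foxf2 rose 2.21-fold by the authors' deposited table (limma difference 0.44 ± 0.11 (SE), adjusted p = 0.0045). Foxf1 fell 2.07-fold by the authors' deposited table (limma difference -0.33 ± 0.09 (SE), adjusted p = 0.00802), and its difference turned to 0.09 after quantile normalization.

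Foxs1, which marks cells around the vessels of the developing mouse testis, had values of 12.63, 12.65 and 12.54 in the knockout libraries, against 12.11, 12.06 and 12.05 in the wild-type libraries. These groups were tight and separate. It rose 1.76-fold by the authors' deposited table (limma difference 0.53 ± 0.07 (SE), adjusted p = 1.68e-04). Of 17 peritubular myoid markers 11 had a row and all 11 were lower, beside 67.5% of all genes. After quantile normalization 8 were lower, beside 35.1% of all genes, and after median centring 10, beside 31.4%. Summed values of the myoid markers came to a log2 of 18.54 to 18.75 in knockout libraries and 19.03 to 19.35 in wild-type libraries. The part of myoid cells and of cells around vessels in the change of Foxs1 was not tested.

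Foxd2 had values of 5.99, 6.14 and 6.14 in the knockout libraries, against 5.73, 5.78 and 5.83 in the wild-type libraries. Foxj3 had values of 11.26, 11.40 and 11.51 in the knockout libraries, against 11.03, 11.03 and 10.98 in the wild-type libraries. In both forkhead genes each knockout library was above each wild-type library, and Foxd2 rose 2.15-fold and Foxj3 1.51-fold by the authors' deposited table (limma adjusted p = 0.00431 for Foxd2 and 0.0021 for Foxj3). Foxj3 was the member nearest to the table's threshold of 1.5-fold. Foxa2, a pioneer factor of endoderm, had values of 4.31, 4.35 and 4.42 in the knockout libraries, against 4.66, 4.90 and 4.49 in the wild-type libraries. It fell 2.98-fold by the authors' deposited table (limma adjusted p = 0.00996), with an SD of 0.06 in knockout and 0.21 in wild-type libraries (n = 3 each). Foxa2 was in the lowest bin by average log2 value, and its difference was 0.20 of the authors' log2 fold change. The spreads at such low values were not compared by a test. The oxidoreductase gene Foxred2 had values of 9.04, 9.23 and 8.88 in the knockout libraries, against 9.49, 9.63 and 9.33 in the wild-type libraries, and it fell 1.65-fold by the authors' deposited table (limma adjusted p = 0.0064).

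Of the T-box genes, Tbx3 and Tbx15 were higher and Tbx18 was lower. Tbx3 (gene ID 21386, chromosome 5, 119670534 to 119684724 in GRCm38), a repressor required in limb and mammary development, had values of 10.52, 10.70 and 10.54 in the knockout libraries, against 9.75, 9.66 and 9.92 in the wild-type libraries. Every knockout library exceeded every wild-type library, and no other member rose as much. Tbx3 rose 2.45-fold by the authors' deposited table (limma difference 0.81 ± 0.09 (SE), adjusted p = 9.06e-05). Tbx15, a factor of skeleton and dorsal skin in the mouse, had values of 4.36, 4.51 and 4.48 in the knockout libraries, against 4.19, 4.19 and 4.32 in the wild-type libraries, so that the lowest knockout value was just above the highest wild-type value. It rose 2.27-fold by the authors' deposited table (limma difference 0.21 ± 0.06 (SE), adjusted p = 0.00884). Tbx15 was in the lowest bin by average log2 value, and its difference was 0.18 of the authors' log2 fold change. The authors' own adjusted p for Tbx15 was just under their limit of 0.05. Tbx18, a factor of epicardium and other mesothelial layers, went against them with values of 7.91, 7.82 and 7.99 in the knockout libraries, against 8.35, 8.20 and 8.60 in the wild-type libraries. It fell 1.93-fold by the authors' deposited table (limma adjusted p = 0.00386), and its difference was -0.02 after quantile normalization and -0.18 after median centring, neither of which passed.

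**Figure D4:**
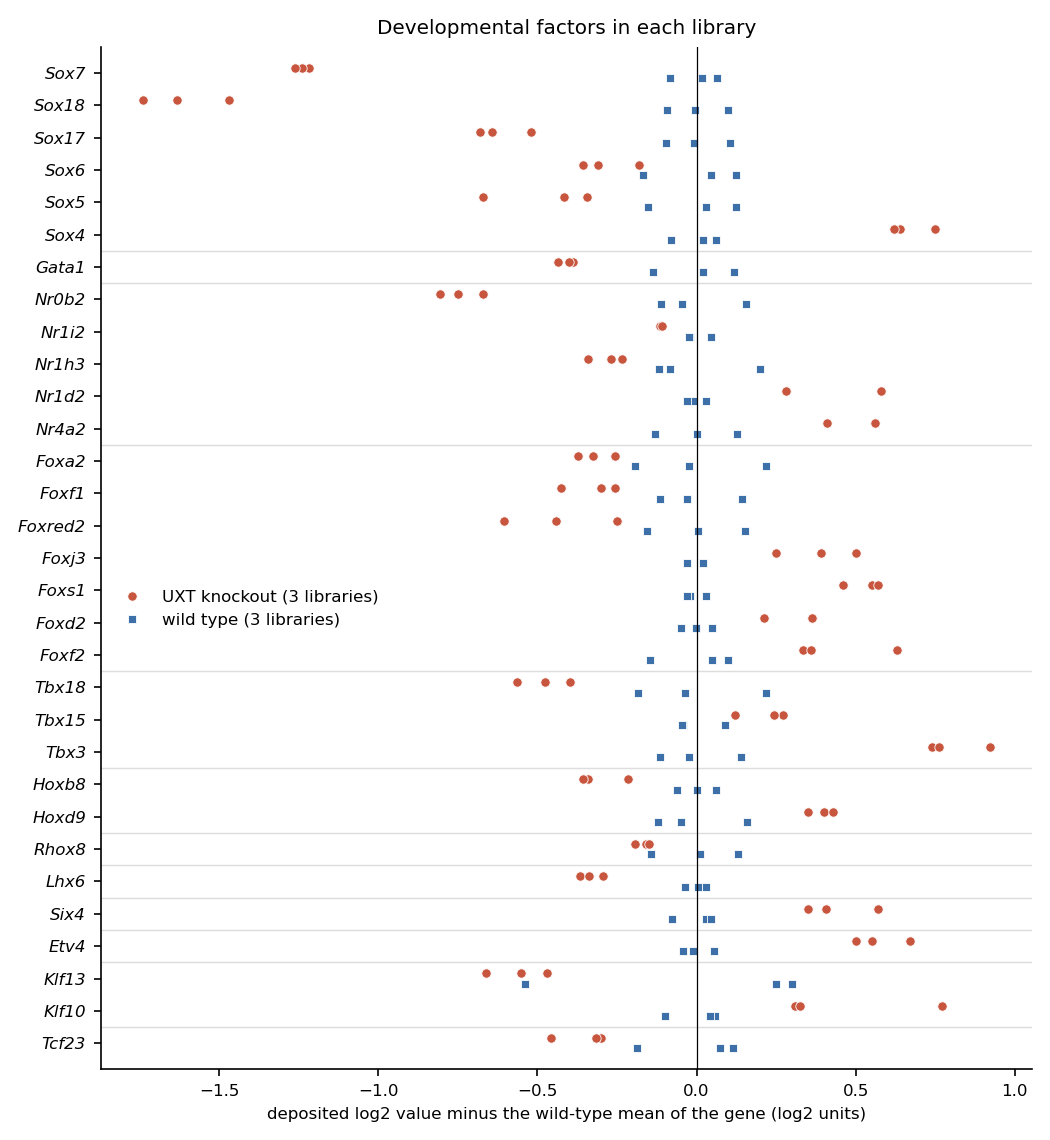
Deposited log2 value of each member in each library minus the gene's wild-type mean, in log2 units, with knockout circles above wild-type squares and families separated by lines. Groups overlap in Klf13 alone, whose wild-type libraries range from 12.03 to 12.87.

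Of the homeobox members, 2 were higher (Hoxd9 and Six4) and 3 lower (Hoxb8, Rhox8 and Lhx6). Hoxd9, a posterior factor of limbs and trunk, had values of 11.02, 11.05 and 10.97 in the knockout libraries, against 10.50, 10.57 and 10.78 in the wild-type libraries. Hoxb8, known from blood progenitors and microglia, had values of 5.79, 5.67 and 5.65 in the knockout libraries, against 5.94, 6.01 and 6.07 in the wild-type libraries. The groups were separate in both, in opposite directions, and Hoxd9 rose 1.53-fold while Hoxb8 fell 2.14-fold by the authors' deposited table (limma adjusted p = 0.00227 for Hoxd9 and 0.00453 for Hoxb8). The difference of Hoxb8 was 0.07 after quantile normalization, of the other sign. Rhox8, an X-linked homeobox gene of Sertoli cells, had values of 3.45, 3.46 and 3.42 in the knockout libraries, against 3.47, 3.74 and 3.62 in the wild-type libraries. The highest knockout and lowest wild-type values of Rhox8 nearly met, and its fall of 2.35-fold by the authors' deposited table (limma adjusted p = 0.0288) did not pass in 5 of the 6 refits that left out 1 library (largest adjusted p = 0.0878; without wild-type replicate 1 it passed), nor after either scaling. Of 30 Sertoli markers 19 had a row. The 1 that was higher was Mro, at 2.09-fold by the authors' deposited table, with overlapping groups. The other 18 were lower, beside 67.5% of all genes. As lower 14 passed after each scaling, beside 35.1% of all genes after quantile normalization and 31.4% after median centring. Summed values of the 19 came to a log2 of 15.84 to 16.28 in knockout libraries and 17.10 to 17.52 in wild-type libraries. The part of Sertoli cells in the changes of Rhox8 and Gata1 was not tested.

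Lhx6, a LIM homeodomain factor of cortical interneurons, had values of 4.67, 4.74 and 4.70 in the knockout libraries, against 5.06, 4.999 and 5.04 in the wild-type libraries. Six4, which acts with EYA proteins and, together with its paralog, in male sex determination in the mouse, had values of 8.14, 7.98 and 7.92 in the knockout libraries, against 7.49, 7.601 and 7.62 in the wild-type libraries. Lhx6 was lower in every knockout library and Six4 higher in every knockout library. Lhx6 fell 3.66-fold and Six4 rose 1.91-fold by the authors' deposited table (limma adjusted p = 5.87e-04 for Lhx6 and 0.0022 for Six4), and Lhx6 did not pass after either scaling. Of 95 other homeobox genes 15 had a row, with 3 higher and 12 lower, beside 32.1% and 67.5% of all genes. Of the 12, 2 passed as lower after quantile normalization and 1 after median centring, beside 35.1% and 31.4% of all genes. Pou2f2, a lymphoid and myeloid POU factor, fell 5.33-fold and Pou3f1 3.69-fold, while Pax8 rose 2.56-fold, Prox1 2.33-fold and Zfhx2 1.77-fold by the authors' deposited table.

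Etv4, an ETS factor of the PEA3 group that follows FGF and ERK signals, had values of 10.42, 10.59 and 10.47 in the knockout libraries, against 9.91, 9.97 and 9.88 in the wild-type libraries. Its groups were tight and apart, and it rose 1.91-fold by the authors' deposited table (limma difference 0.57 ± 0.08 (SE), adjusted p = 2.16e-04). Of 25 FGF and ERK feedback genes 12 had a row, with 6 higher and 6 lower, beside 32.1% and 67.5% of all genes. Of the 6 lower genes, 3 passed as lower after quantile normalization and 1 after median centring, beside 35.1% and 31.4% of all genes. Dusp4, a phosphatase that inactivates ERK, rose 2.69-fold and Fgf2 2.45-fold, while the receptor gene Epha2 fell 2.54-fold by the authors' deposited table.

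Klf10, a repressor induced by TGF-beta, had values of 9.86, 9.87 and 10.32 in the knockout libraries, against 9.61, 9.59 and 9.45 in the wild-type libraries. Klf13, a Krüppel-like repressor, had values of 12.02, 12.10 and 11.91 in the knockout libraries, against 12.82, 12.03 and 12.87 in the wild-type libraries. In Klf10 knockout replicate 3 stood above the other knockout libraries, and in Klf13 wild-type replicate 2 lay among the knockout values, so that the groups overlapped. Klf10 rose 1.73-fold by the authors' deposited table (limma difference 0.47 ± 0.13 (SE), adjusted p = 0.00645). Klf13 fell 1.77-fold by the authors' deposited table (limma difference -0.56 ± 0.19 (SE), adjusted p = 0.0188), and it did not pass in 3 of the 6 refits without 1 library (largest adjusted p = 0.0826) or after either scaling.

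Tcf23, a basic helix-loop-helix protein, had values of 5.61, 5.59 and 5.45 in the knockout libraries, against 5.72, 6.02 and 5.99 in the wild-type libraries. It fell 2.47-fold by the authors' deposited table (limma adjusted p = 0.00598), and its difference was -0.01 after quantile normalization. Of 54 other basic helix-loop-helix factors 8 had a row, with 2 higher and 6 lower, beside 32.1% and 67.5% of all genes. Of the 6, 3 passed as lower after quantile normalization and 4 after median centring, beside 35.1% and 31.4% of all genes. Hey1, a Notch target, fell 5.05-fold, Npas2 3.49-fold and Epas1, a hypoxia factor of endothelium, 3.16-fold, while Bhlhe41 rose 1.82-fold and Id1 1.72-fold by the authors' deposited table. Among 42 partners and corepressors, 12 had a row, with 4 higher and 8 lower, beside 32.1% and 67.5% of all genes. Of the 8, 3 passed as lower after quantile normalization and 2 after median centring, beside 35.1% and 31.4% of all genes. Cited1 fell 6.99-fold, Lmo2, a blood and vessel LIM adaptor, 5.05-fold and Eya4 2.76-fold, while Eya1, a coactivator that partners Six4, rose 1.88-fold, Phc1 1.81-fold, Tle1 1.67-fold and Cited4 1.56-fold by the authors' deposited table. Of 27 canonical Wnt targets 7 had a row, with 3 higher and 4 lower, beside 32.1% and 67.5% of all genes. Of the 4, 1 passed as lower after either scaling. Rnf43 fell 3.04-fold while Myc rose 1.97-fold by the authors' deposited table.

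All 13 members that rose passed as higher after both scalings as well, with differences of 0.42 to 0.99 after quantile normalization and 0.51 to 1.10 after median centring. The same held for the whole table, where all 1047 genes with a higher fold by the authors' deposited table passed as higher after each scaling. Of the 18 that were lower, Sox7, Sox18, Sox17, Nr0b2 and Gata1 passed as lower after quantile normalization, and the same genes without Gata1 after median centring. Centring moved every gene upwards by 0.30, and quantile normalization moved each of the 3257 genes upwards by 0.03 to 0.67. With such a shift rises keep their call and small falls lose it, so these passes do not set the rises above the falls.

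**Figure D5:**
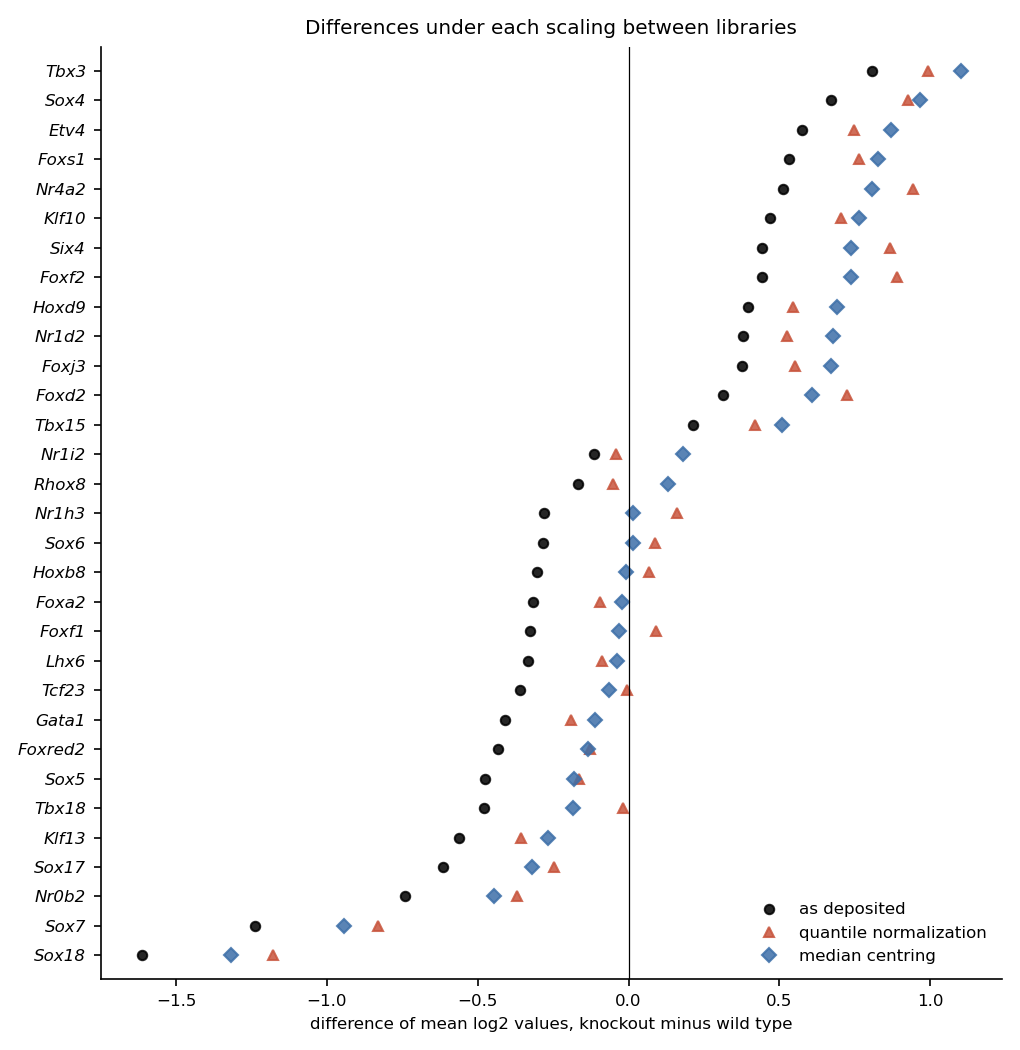
Difference of mean log2 values, knockout minus wild type, for each member from the deposited values (circles), after quantile normalization (triangles) and after median centring (diamonds). All 13 members above Nr1i2 lie right of 0 in each setting, and Sox18 and Sox7 lie furthest left.

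Dependence on single libraries of either group and annotation limit some values. When each library was left out in turn, 27 of 31 members kept an adjusted p under 0.05 in all 6 refits, and Klf13, Nr1h3, Rhox8 and Sox6 did not. In GENCODE M21, 12 members overlapped a gene on the other strand, among them Sox5, Sox6, Sox17 and Tbx3, and the use of strand in counting is not given in the sources used here, so reads of such pairs cannot be told apart.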

How the data were processed

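Expression was measured by RNA sequencing of primary mouse Sertoli cells, with 3 knockout and 3 wild-type libraries, grouped and numbered by their titles. Per the submitters' processing notes, the tools were FastQC, STAR and DESeq2 and the build mm10, with no version. Aligner settings, counter, annotation and strand use are not given in the sources used here. A single table, as deposited by the authors, held 3261 rows, selected on these libraries. Its log2 values per library were deposited by the authors, and how they were normalized and transformed is not stated. The authors also deposited a signed fold score (knockout over wild type, or minus the inverse), its log2 fold change, p-values and adjusted p-values. Symbols on 2 rows (4 rows) were left out, which left 3257 genes.

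The deposited log2 values were fitted in R 4.3.3 by limma 3.58.1, using a mean-variance trend and no covariate. P-values were adjusted by Benjamini-Hochberg over 3257 genes. The fit was tested on simulated data. The design's rule named, per family, the largest change, the highest average and members against the majority. Values of the other members, Sox5, Sox6, Sox17, Foxd2, Foxj3, Tbx15, Nr1h3 and Nr1i2, and the promoter motifs were added after their values were seen. Members and gene lists were chosen with earlier results of these data known. Lists were described by counts and medians, without set tests. Coordinates are GRCm38. Alternatives were quantile normalization, median centring, a filter on low values, other variance models, stricter thresholds, leaving out each library and a replicate block.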

Additional observations from a re-analysis of the deposited data

How the results depend on the processing

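Without the 25% of genes with the lowest mean, 5 members were called lower and the median difference of those left was 0.40, because 16 of the 31 members were removed. The median difference of members, -0.28 from the deposited values, was 0.088 after quantile normalization and 0.014 after median centring, and -0.28 to -0.18 when 1 library was left out. That of all genes was -0.40 from the deposited values, -0.066 after quantile normalization and -0.10 after median centring. Members called lower numbered 5 after quantile normalization and 4 after median centring, against 18, and all genes called lower 1143 and 1024, against 2200. At an authors' fold of at least 2, 6 members were higher and 12 lower, and 302 and 1438 of all genes. Differences turned positive after quantile normalization for Foxf1 (0.093), Hoxb8 (0.066), Nr1h3 (0.16) and Sox6 (0.088), and after median centring for Nr1h3 (0.014), Sox6 (0.013), Nr1i2 (0.18) and Rhox8 (0.13). All 3257 genes moved upwards under both scalings, which were computed on the selected genes alone. At an adjusted p under 0.01, 14 members were lower and 13 higher. Nr1i2 and Rhox8 did not pass without the mean-variance trend. With Nr2c2ap counted as a member, an alternative chosen after seeing the data, 14 were higher, without Foxred2 17 were lower, and without Sox7, Sox17 and Sox18 15 were lower.

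With the replicate number as a block, 13 members were higher and 18 lower, as without it, and all genes gave 1045 higher and 2207 lower. Same-numbered libraries did not deviate together (correlations 0.177, -0.0731 and -0.00388), so the numbers were not taken as pairs. No counts were used, so what depth limits could not be computed.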

Other observations

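In GENCODE M21, 6 of 31 members (19.4%) had another gene of the table within 50 kb, beside 1312 of the 3159 table genes matched there (41.5%), a difference that was not tested. Mylk2, a muscle myosin kinase gene 8.83 kb from Foxs1, was 2.26-fold higher and Dusp15, 7.79 kb away, 2.46-fold lower in knockout cells by the authors' deposited table, on both sides of a gene that was higher. Hdac6, a cytoplasmic deacetylase gene 11.4 kb from Gata1, was 2.71-fold lower, as was Emilin1 near Tcf23 by 1.78-fold, by the authors' deposited table. Wars2, a mitochondrial tryptophan tRNA synthetase gene 1.20 kb from Tbx15, was 1.93-fold higher by the authors' deposited table. Gpatch3 near Nr0b2 was 1.83-fold higher, and Eif3d and Txn2 near Foxred2 were 1.59-fold and 1.65-fold higher, by the authors' deposited table, while the members beside them were lower.

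Germ cell and fibroblast markers were also read. Of 22 germ cell markers 4 had a row, with 1 higher and 3 lower, beside 32.1% and 67.5% of all genes. Kit, which other cells also express, fell 4.19-fold by the authors' deposited table. Of 18 interstitial fibroblast markers 8 had a row and all 8 were lower, beside 67.5% of all genes. After either scaling 5 of them were lower, beside 35.1% of all genes after quantile normalization and 31.4% after median centring. The fibroblast list's median level relative to the wild-type mean was -0.81, -0.45 and -1.12 in the knockout libraries, on the log2 scale.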
